A study of Mus musculus with 2 samples.

Results

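Oligodendrocyte lineage nuclei were taken from 2 single-nucleus RNA libraries of mouse cerebellum at postnatal day 1. They were chosen by their counts of 4 genes: a nucleus with 1000 or more detected genes and at most 5% mitochondrial transcripts was a member when Pdgfra, Sox10, Olig1 and Olig2 together had 3 or more unique molecular identifiers (UMIs, each standing for 1 captured transcript). At least 1 of those UMIs had to come from Pdgfra or Sox10, and Gad1 and Gad2, the enzymes that make GABA, could hold at most 2 UMIs together. The rule found 340 members among 11803 barcodes, 103 in the control library and 237 in the conditional knockout (cKO) library, of which 3816 control and 6217 cKO nuclei passed the filters.

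The study deleted Tox3, which encodes an HMG-box nuclear protein, in the developing cerebellum. The cKO library came from Nestin-cre;Tox3f/f mice, in which the Nestin promoter drives Cre in neural precursors and so in neurons and in glia descended from them. The control library came from littermates without Cre, given as Tox3f/f under genotype and as Tox3f/f or Tox3f/+ in the library name. Each library pooled the nuclei of 12 cerebella, so there was 1 sample per genotype. No difference between the libraries below has a replicate check or a test; the 95% intervals cover counting error only, and a difference between the pools other than genotype cannot be told apart from one due to genotype.

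Oligodendrocyte precursor cells (OPCs) carry the PDGF receptor Pdgfra and the proteoglycan Cspg4, divide, and spread through the brain around birth. They are specified by Olig1 and Olig2 and held in the lineage by Sox10. When they stop dividing they lose Pdgfra and Cspg4, pass through a committed stage marked by Gpr17, Bmp4 and Neu4, then a premyelinating stage marked by Enpp6 and Bcas1, and then switch on the myelin genes Mbp, Mag and Mog.

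Depth was alike in both libraries. The members held 548768 UMIs in the control and 1066120 in the cKO library, with medians of 4490 and 4033 UMIs per nucleus and of 2371 and 2103 genes. The libraries shared 9 barcode sequences, of which 0 belonged to members. Of the nuclei that met the 4-gene rule, 6 control and 10 cKO nuclei were left out for Gad1 and Gad2. Just inside the threshold, at a sum of 3 UMIs, lay 24 control and 43 cKO members. Just outside it, at a sum of 2, lay 60 and 61 nuclei.

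The 4 selecting genes are given as a description, since they chose the members. Pdgfra had a summed level of 1008 UMIs per 1000000 UMIs (CPM) in control members and 1045 CPM in cKO members, and was detected in 99.0% and 92.8% of them. Sox10 was detected in 38.8% of control and 69.6% of cKO members, Olig1 in 17.5% and 19.8%, and Olig2 in 27.2% and 33.3%. Detection of the transcription factors was thus sparse in both libraries, and Sox10 was the one that differed most between them.

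Genes outside the rule marked the same lineage. Cspg4 stood at 157 CPM in control members and 187 CPM in cKO members, against 3.18 and 3.73 CPM in the other nuclei, a 49.3-fold (35.4 to 68.8) and a 50.1-fold (39.7 to 63.3) difference. Gpr17, a receptor of committed precursors, was 71.8-fold (45.7 to 115) and 41.2-fold (33.0 to 51.4) higher in members. Sox6, a factor that holds OPCs in the precursor state, was 18.8-fold (17.6 to 20.2) and 20.3-fold (19.5 to 21.2) higher.

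The 15 genes with the largest excess over other nuclei in both libraries also held Bmp7, a bone morphogenetic protein (21.4-fold and 57.5-fold), Slc22a3, an organic cation transporter (31.8-fold and 28.0-fold), Tafa4 (17.7-fold and 17.2-fold) and Rnf43, an E3 ligase that removes Wnt receptors (17.1-fold and 28.6-fold). Noncoding transcripts were prominent among them. 4933407I08Rik stood 91.7-fold and 82.6-fold higher in control and cKO members, Gm12145 192-fold and 62.1-fold, and Gm12146 56.7-fold and 41.6-fold. Sox2ot, which spans Sox2, was 22.5-fold and 22.9-fold higher. 4933407I08Rik lies opposite Ppp2r2b and Gm12146 opposite Atp10b. Gm38505 (28.8-fold and 30.2-fold) and Gm20515 (22.5-fold and 19.6-fold) lie opposite Sox2ot, and Gm45025 (27.9-fold and 30.9-fold) opposite Sox6. Whether reads of the gene on the opposite strand add to any of these counts was not tested.

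**Figure D1:**
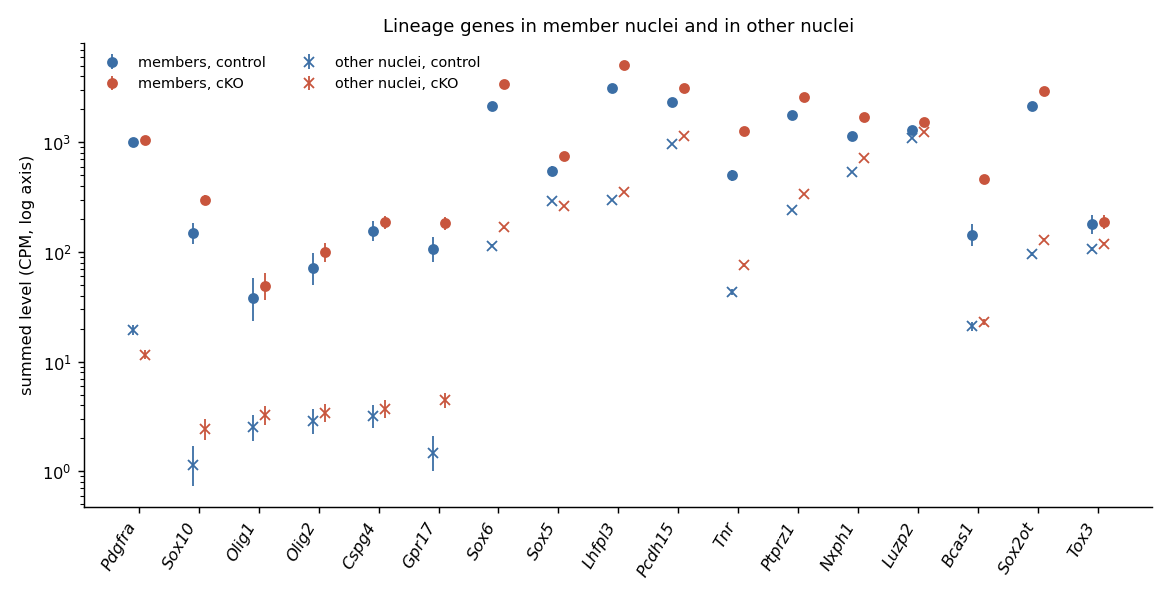
Summed levels in CPM on a log axis of the 4 selecting genes, 12 further lineage genes and Tox3, with circles for member nuclei and crosses for all other nuclei of each library; vertical lines are 95% Poisson intervals, often shorter than the symbol. For Cspg4 the circles lie at 157 and 187 CPM and the crosses at 3.18 and 3.73 CPM. For Tox3 the circles lie at 180 and 188 CPM, above the crosses at 106 and 119 CPM.

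The members were not of 1 kind. In the control library 41 of 103 members (39.8%, Clopper-Pearson interval 30.3 to 49.9) were admitted on Pdgfra alone, with 0 UMIs of Sox10, Olig1 and Olig2. In the cKO library this was so for 44 of 237 (18.6%, 13.8 to 24.1). The remaining 62 control and 193 cKO members carried a UMI of at least 1 of those 3 factors and are called supported members here, a split made after the values were seen.

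In supported members the summed UMIs of Cspg4, Lhfpl3, Tnr, Pcdh15 and Sox8 had a median of 43.5 per nucleus in the control and 43.0 in the cKO library. For the nuclei with Pdgfra alone the median was 5 in the control and 29.5 in the cKO library. Of the 41 control nuclei with Pdgfra alone, 23 had 3 or fewer UMIs of Lhfpl3, a membrane protein gene abundant in OPCs, and 17 of those also had 3 or more UMIs of the granule lineage genes Pax6, Neurod1, Cntn2 and Barhl1. Of the 44 cKO nuclei with Pdgfra alone, 9 and 5 did so. In each library 2 nuclei with Pdgfra alone held 3 or more UMIs of the fibroblast collagens Col1a1 and Col3a1, and 0 supported members did. Among supported members 7 of 62 control and 11 of 193 cKO nuclei had 3 or fewer Lhfpl3 UMIs, and 3 and 2 of them also had 3 or more granule UMIs. The label thus fitted most supported members, with a few exceptions, while 23 of the 41 control nuclei admitted on Pdgfra alone held few or no Lhfpl3 UMIs. The main comparisons below are given for all members and for supported members.

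**Figure D2:**
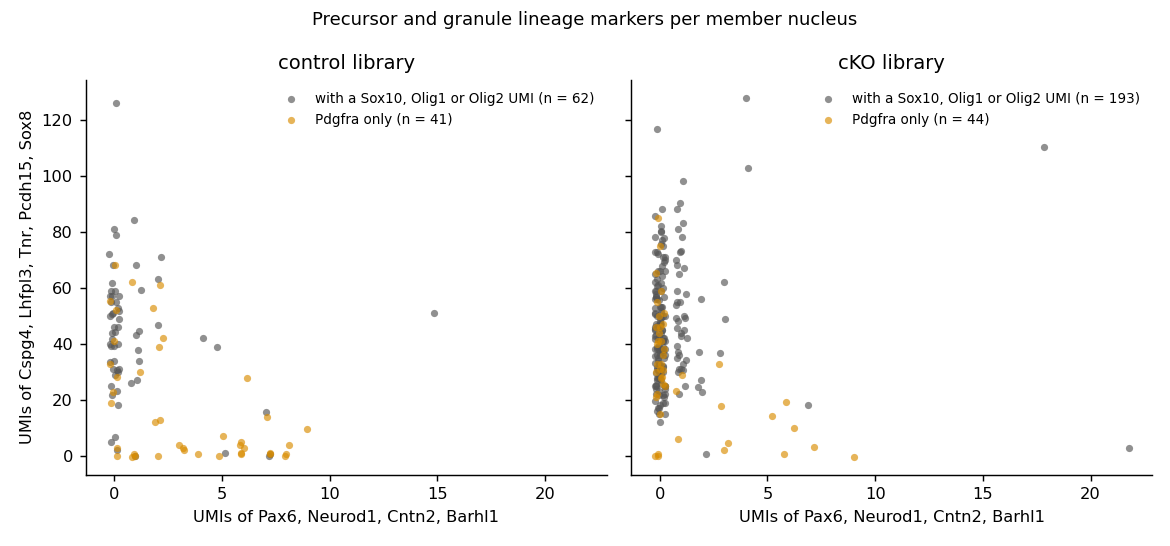
Each point is 1 member nucleus, with the UMIs of 5 precursor markers (vertical axis) against the UMIs of 4 granule lineage markers (horizontal axis) in the control (left) and cKO (right) library; points are shifted slightly at random so that they do not hide each other. Nuclei with Pdgfra alone (orange) reach down to 0 precursor UMIs and up to 9 granule UMIs, with lower precursor sums in the control library, while supported members (grey) have medians of 43.5 and 43.0 precursor UMIs.

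Members made up 2.70% (2.21 to 3.26) of control nuclei and 3.81% (3.35 to 4.32) of cKO nuclei that passed the filters, a ratio of 1.41 (1.12 to 1.80). For supported members the shares were 1.62% and 3.10%, a ratio of 1.91 (1.43 to 2.59). Nuclei with 3 or more UMIs of the astroglial genes Slc4a4, Gdf10, Aqp4, Gja1 and Aldh1l1 made up 13.4% and 21.2%, a ratio of 1.59 (1.43 to 1.76). Among members and astroglial nuclei together, members were 16.8% of the control and 15.2% of the cKO library, a ratio of 0.907 (0.717 to 1.15), and supported members 10.8% and 12.8%, a ratio of 1.18 (0.881 to 1.60). Among nuclei with at most 1 UMI of Pax6, Neurod1 and Cntn2 together, the ratio was 1.32 (1.00 to 1.75) for members and 1.46 (1.07 to 2.03) for supported members. A larger share of oligodendrocyte lineage nuclei was thus measured against all nuclei and against those without granule markers. Within the glia, where astroglial nuclei also had a larger share, the interval of the ratio included 1.

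Tox3 itself was not lower in the cKO members. It had 99 UMIs in control members and 200 in cKO members, 180 and 188 CPM, a ratio of 1.04 (0.813 to 1.34). In supported members the ratio was 1.01 (0.757 to 1.37), and Tox3 was detected in 43.7% of control and 46.8% of cKO members. These 3′ counts do not show whether a transcript holds the floxed part of Tox3, so they do not check the deletion, and the cKO library is named here by its label. Of the other family members, Tox had a ratio of 1.21 (1.03 to 1.41) in all members and 0.99 (0.83 to 1.18) in supported ones.

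Across genes, 9681 had 20 or more UMIs over both sets of members. Of these, 402 (4.15%) were past 2-fold higher in the cKO library and 408 (4.21%) past 2-fold lower, and the median log2 ratio was -0.04. In supported members 8348 genes were covered, with 450 (5.39%) higher, 291 (3.49%) lower and a median of -0.02. With 62 to 237 nuclei a side, single nuclei can carry a gene, so for several genes the nuclei behind them are given.

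The OPC identity list held 30 genes with enough counts, 28 higher and 2 lower in the cKO members, with a median log2 ratio of 0.52 and 6 past 2-fold (Sox8, Tnr, Rlbp1, Lims2, Sulf2 and Matn4). In supported members the median was 0.28 and 2 of 29 were past 2-fold higher, and in the other nuclei 28 of 32 were higher with a median of 0.22. There the receptor-type phosphatase Ptprz1 stood at 2248 and 2748 CPM, a ratio of 1.22 (1.12 to 1.33), Lhfpl3 at 1.26 (1.18 to 1.34) and Sox6 at 1.24 (1.15 to 1.33). Cspg4 (0.99, 0.74 to 1.33), Pcdh15 (1.08, 1.00 to 1.16) and Xylt1, which starts chondroitin sulfate chains (0.92, 0.83 to 1.02), lay near 1. The 2 past 2-fold were Tnr, the matrix glycoprotein tenascin-R, at 698 and 1428 CPM, a ratio of 2.05 (1.77 to 2.37), and Sox8, a partner of Sox10, at 24.8 and 52.5 CPM, a ratio of 2.12 (0.99 to 5.20).

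Of 18 committed precursor genes, 14 were higher in cKO members and 9 of them past 2-fold, with 1 past 2-fold lower (Kif19a). The median log2 ratio was 0.95, and it was -0.024 when the rule was applied to nuclei thinned to 1000 UMIs. In supported members 7 of 15 were past 2-fold higher, with a median of 0.66. Bcas1, a marker of newly formed oligodendrocytes, rested on 79 UMIs in 48 control nuclei and 491 UMIs in 142 cKO nuclei, 144 and 461 CPM, a ratio of 3.20 (2.52 to 4.11). Its ratio in supported members was 2.83 (2.16 to 3.77). The antisense Bcas1os2 overlaps Bcas1 on the opposite strand, and whether its reads add to this count was not tested. Tcf7l2, a Wnt effector that rises as precursors differentiate, was at 155 and 412 CPM, a ratio of 2.66 (2.10 to 3.39), and 2.14 (1.65 to 2.80) in supported members. Itpr2, an intracellular calcium channel used as a marker of committed cells, was at 2.26 (1.83 to 2.83), and 2.01 (1.57 to 2.60) in supported members. Gpr17 was at 1.73 (1.28 to 2.36) in all members and 1.38 (1.00 to 1.94) in supported ones.

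Of 15 myelin genes, 13 were higher, 5 of them past 2-fold, with a median log2 ratio of 0.79; in supported members 7 of 13 were past 2-fold, with a median of 1.26. Mbp, myelin basic protein, had 21 UMIs in 16 control nuclei and 208 in 46 cKO nuclei, a ratio of 5.10 (3.25 to 8.41), and of 9.39 (4.68 to 22.1) in supported members. The detection of Mbp in control members (15.5%) was near that in the other nuclei of that library (14.8%). No single control member held more than 3 of its UMIs, while 1 cKO member held 36. Fa2h, which hydroxylates the fatty acids of myelin lipids, had 4 UMIs in 4 control and 61 UMIs in 39 cKO nuclei, a ratio of 7.85 (2.91 to 29.7), and Nfasc, neurofascin, was at 2.35 (1.90 to 2.92). In supported members Fa2h was at 6.999 (2.28 to 34.9) and Nfasc at 2.86 (2.18 to 3.81). In the other nuclei 18 of 23 myelin genes were higher with a median of 0.23, where Mbp had a ratio of 1.09 and Fa2h of 1.05.

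The largest contrast was Enpp6, a choline phosphodiesterase of premyelinating oligodendrocytes (chromosome 8, 46986887 to 47096762, mm10, plus strand). It had 0 UMIs in the 103 control members and 95 in the cKO members, at least 16.3-fold higher against 3 counts. The 95% interval of the ratio of the counts themselves began lower, at 13, and at 9.30 in supported members. All 95 came from 12 nuclei. Among the other nuclei 0.458% of the control and 0.953% of the cKO library held an Enpp6 UMI. For the share of nuclei with an Enpp6 UMI, 3 counts in 103 control nuclei would be 2.91% and the exact upper limit was 3.52%, against 5.06% (2.64 to 8.68) in the cKO library.

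Because such cells lose Pdgfra, the rule can miss them, so nuclei with 3 or more Enpp6 and 2 or more Bcas1 UMIs were counted over all nuclei that passed the filters, a definition chosen after the values were seen. The cKO library held 20 of them among 6217 nuclei (0.322%, 0.197 to 0.496), and the control library 0 among 3816, where 3 counts would be 0.0786% and the exact upper limit was 0.0966%. Set against 3 control counts the cKO share was at least 4.09-fold higher, and the 95% interval of the ratio of the counts themselves began lower, at 3.03. Counted against supported members and these nuclei together, they were 20 of 202 in the cKO library and 0 of 62 in the control library, where the floor of 3 counts is 4.84%, so that the share was at least 2.05-fold higher against it, and the interval began at 1.52. With at least 1 UMI of each gene the counts were 2 control and 25 cKO nuclei, a ratio of 7.67 (1.91 to 66.8), and with 5 of each they were 0 and 15.

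These Enpp6 nuclei had a common profile that the definition did not use. Sox10 was detected in 19 of the 20, while Pdgfra and Cspg4 had 0 UMIs in all 20. Pdgfra was one of the genes that selected the members, so its difference from them is a description. Mbp ranged from 0 to 36 UMIs per nucleus with a median of 12.5 and Nfasc from 2 to 65 with a median of 25. Tnr was detected in every one of them, at 11 to 86 UMIs, and its level of 7802 CPM was 8.01-fold (7.27 to 8.82) that of the other supported cKO members.

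Transcripts of later myelination were present in part: Mag was detected in 9 of the 20, at 264 CPM against 1.22 CPM in the other supported cKO members. Bmp4, a ligand of the committed stage, was detected in 13, at 229 CPM. Precursor genes were low, with Lhfpl3 at 633 against 5654 CPM, a ratio of 0.11 (0.09 to 0.14), and Ptprz1 at 0.31 (0.25 to 0.37), whereas Sox6 was still at 3272 CPM, a ratio of 0.88 (0.79 to 0.98). Top2a had 0 UMIs, and 1 of the 20 counted as dividing. Tox3 was lower in these nuclei, at 88.0 against 211 CPM, a ratio of 0.42 (0.20 to 0.79) on 10 UMIs in 6 nuclei.

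Their depth was ordinary, with 2860 to 11596 UMIs and a median of 5100 per nucleus. Of the 20, 11 were members, 8 had a sum of the 4 selecting genes below 3 and 1 was left out for its Gad1 and Gad2 UMIs. The doublet score removed 0 of them.

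**Figure D3:**
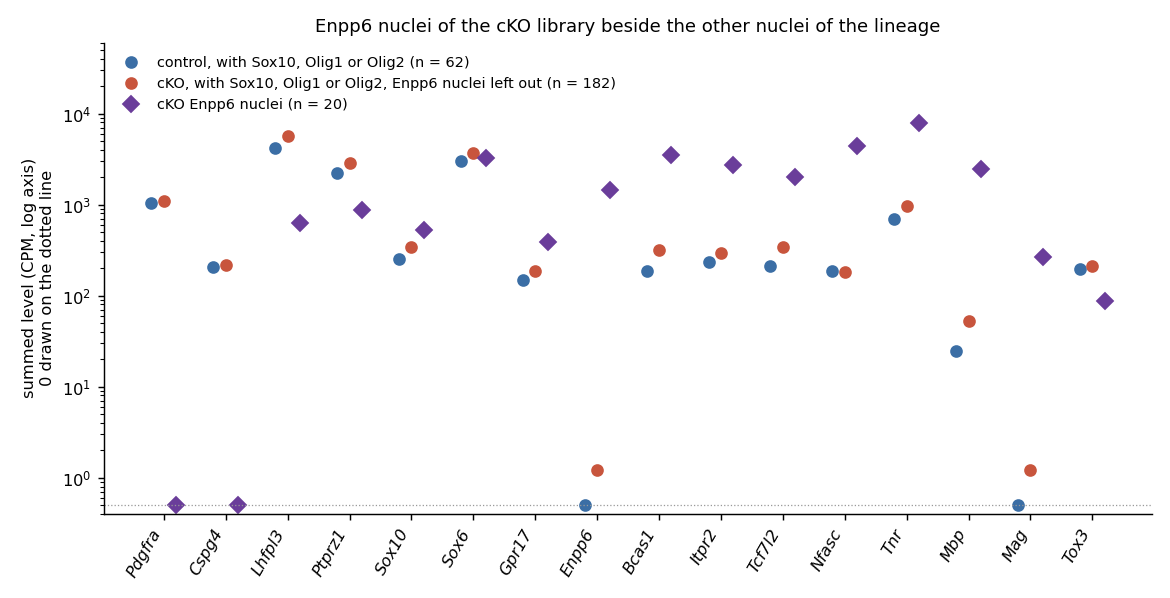
Summed levels in CPM on a log axis of 16 genes in supported control members (blue), in supported cKO members without the Enpp6 nuclei (red) and in the 20 Enpp6 nuclei of the cKO library (violet diamonds); a level of 0 is drawn on the dotted line and intervals are not drawn. Pdgfra and Cspg4 are at 0 in the Enpp6 nuclei, Mbp stands at 2481 CPM there against 52.6 and 24.8 CPM, and the blue and red points lie close together for most of the other genes.

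The Enpp6 nuclei carried much of the difference in myelin genes. They held 77.4% of the Mbp UMIs of all cKO members, 75% of the noncoding 9530059O14Rik, 66.7% of Epb41l2, a membrane skeleton protein, 64.3% of Nfasc and 41.8% of Bcas1. Without them the ratio of cKO to control members was 1.22 (0.715 to 2.15) for Mbp and 0.888 (0.695 to 1.14) for Nfasc. Bcas1 (1.97, 1.53 to 2.56), Tcf7l2 (2.04, 1.60 to 2.62), Tnr (1.79, 1.56 to 2.06) and Fa2h (5.99, 2.18 to 23.0) stayed higher. Comparing supported members only, again without them, gave 1.69 (1.27 to 2.27) for Bcas1, 1.60 (1.22 to 2.11) for Tcf7l2 and 1.40 (1.204 to 1.63) for Tnr. The median log2 ratios of the myelin, committed precursor and OPC identity lists were then alike, at 0.33, 0.31 and 0.31, and in all members at 0.52, 0.35 and 0.53.

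The remaining genes chosen as most different upward lay in the Enpp6 nuclei to different degrees. Tafa2, a secreted neurokine-like protein, had 44 UMIs in 22 control nuclei and 302 in 103 cKO nuclei, a ratio of 3.53 (2.57 to 4.96) and of 3.26 (2.22 to 4.97) in supported members, and 1.66% of its cKO UMIs lay in Enpp6 nuclei. Fras1, an extracellular matrix protein, had 0 and 32 UMIs, the latter in 20 nuclei, at least 5.49-fold higher. The noncoding Gm47134, which lies opposite 9530059O14Rik, had 0 and 30 UMIs, the latter in 13 nuclei, at least 5.15-fold higher against 3 counts. Its interval began lower, at 3.93, and at 2.52 in supported members. Of its cKO member UMIs 60% lay in Enpp6 nuclei. In supported members without those nuclei its interval began at 0.78. Ell2, an elongation factor, had 2 UMIs in 2 control nuclei and 35 in 26 cKO nuclei, a ratio of 9.01 (2.31 to 77.3), with 20% of the latter in Enpp6 nuclei.

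**Figure D4:**
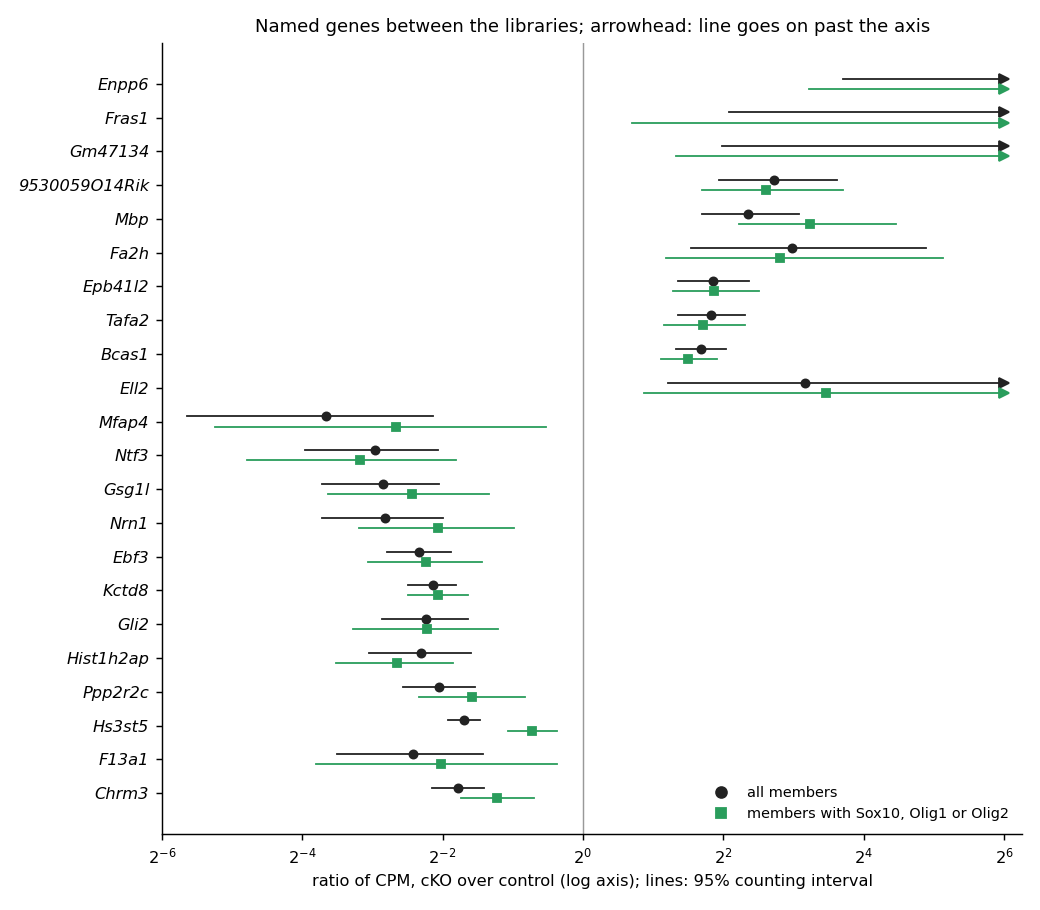
Ratio of CPM, cKO over control, on a log axis for 10 of the 12 genes chosen as most different upward and the 12 downward, in all members (black circles) and in supported members (green squares); lines are 95% counting intervals, and arrowheads mark lines that go on past the axis, with no symbol where the control count is 0. Each gene lies on the same side of 1 in both sets. Supported members are part of all members, on whose values the genes were chosen, so this is no separate check. Among the lower genes Hs3st5 stands at 0.309 in all members and 0.607 in supported ones.

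A broader score of differentiation was also higher in cKO members. It holds Enpp6, Bcas1 and Mbp, already given above as higher in the same nuclei, so its direction is no separate support. Members with 3 or more UMIs over 10 genes of the committed and myelin stages, among them Gpr17, Bmp4, Neu4, Enpp6, Bcas1, Myrf, Mag, Mog and Mbp, were 23 of 103 control (22.3%, 14.7 to 31.6) and 90 of 237 cKO nuclei (38.0%, 31.8 to 44.5), a ratio of 1.70 (1.07 to 2.82). In supported members they were 25.8% and 42.0%, a ratio of 1.63 (0.943 to 2.98). Thinned to 1000 UMIs per nucleus, the expected shares were 1.497% and 8.22% of all members, a ratio of 5.49, and 0.0968% and 0.322% of the other nuclei, a ratio of 3.33. Unthinned, 3.20% and 3.29% of the other nuclei reached the threshold. Without members holding markers of other cell types the ratio was 1.12 (0.641 to 2.05). In the cKO library the supported nuclei past the threshold carried more Tnr (2.87-fold, 2.53 to 3.25), Nfasc (5.35-fold, 4.203 to 6.87) and Tmeff2, a transmembrane protein (3.57-fold, 2.98 to 4.30) than those below it. In the control library the same split gave 1.34 (1.00 to 1.78), 1.22 (0.661 to 2.16) and 0.994 (0.628 to 1.53), and Pdgfra itself was 1.37-fold (1.08 to 1.73) higher past the threshold. The Enpp6 nuclei among the cKO members pass the threshold by their definition. They held 33.5% of the Tnr, 64.3% of the Nfasc and 44.7% of the Tmeff2 UMIs of cKO members. The split therefore largely restates them for Nfasc, and it is not given without them.

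Dividing nuclei were less frequent in the cKO library. Members with 3 or more UMIs of Mki67, Top2a, Cenpf, Cenpe, Aspm, Kif11, Tpx2 and Hmgb2 were 39 of 103 control (37.9%, 28.5 to 48.0) and 51 of 237 cKO nuclei (21.5%, 16.5 to 27.3), a ratio of 0.568 (0.367 to 0.886). In supported members they were 24 of 62 and 39 of 193, a ratio of 0.522 (0.306 to 0.907). Thinned to 1000 UMIs the expected shares were 13.99% and 8.17% in all members, and 12.8% and 8.87% in supported ones. The same direction was measured outside the lineage, where 14.2% of other control nuclei and 6.52% of other cKO nuclei reached the threshold, a ratio of 0.460, and for astroglial nuclei the ratio was 0.673 (0.501 to 0.911), although thinned to 1000 UMIs the astroglial ratio was 0.947. Whether free RNA of dividing cells adds to these counts was not tested.

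By gene, Top2a, the mitotic topoisomerase, had 173 UMIs in control and 180 in cKO members, a ratio of 0.54 (0.43 to 0.66), and 0.55 (0.42 to 0.71) in supported ones. Of 43 genes of the G2 and M phases, 40 were lower, 3 past 2-fold (Ccnb2, Nuf2 and Ttk), with a median log2 ratio of -0.55. That median was -0.036 without members holding markers of other cell types and 0.23 with the rule applied to thinned nuclei. Of 34 S phase genes 27 were lower, 1 past 2-fold (Gins2), with a median of -0.47. In supported members the medians were -0.34 and -0.35. The median of the other nuclei for the G2 and M list was -0.72.

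Among supported members, the ratio of dividing to other nuclei for Lhfpl3 was 0.99 (0.89 to 1.10) in the control library and 0.77 (0.71 to 0.82) in the cKO library. Bcas1 was at 1.18 (0.68 to 2.03) in the control and 0.46 (0.35 to 0.60) in the cKO library.

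**Figure D5:**
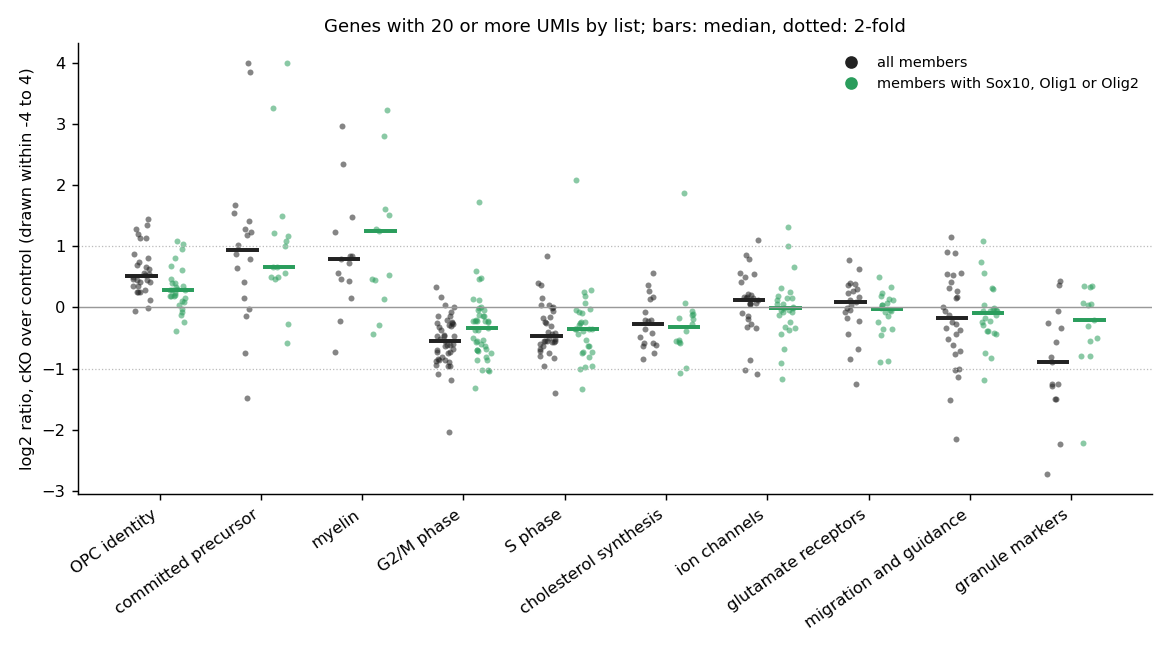
Each point is a gene with 20 or more UMIs, placed by its log2 ratio of cKO over control CPM, for 10 gene lists in all members (black) and supported members (green); bars are medians of the whole lists, of which a few genes are not drawn, dotted lines mark 2-fold, and values beyond 4 are drawn at 4. The committed precursor and myelin medians lie above 0 in both sets, the G2/M and S phase medians below 0, and the granule marker median moves from -0.90 to -0.20 between the sets.

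Among the 12 genes chosen as most different downward, Hist1h2ap, a replication-dependent histone gene of a family of near-identical copies whose counts are uncertain, had 61 UMIs in 39 control nuclei and 24 in 22 cKO nuclei, a ratio of 0.203 (0.121 to 0.330), and 0.159 (0.0877 to 0.278) in supported members. Gli2, an effector of Sonic hedgehog signalling used by granule progenitors, had 80 UMIs in 19 control nuclei and 33 in 17 cKO nuclei. Its ratio was 0.212 (0.137 to 0.322). Ntf3, neurotrophin-3, had 52 UMIs in 12 control nuclei and 13 in 9 cKO nuclei, a ratio of 0.129 (0.0643 to 0.240). In supported members Ntf3 was at 0.111 (0.0363 to 0.285), on only 20 UMIs in 3 control nuclei and 6 in 4 cKO nuclei.

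The same genes were also lower in the other nuclei, at 0.244 for Hist1h2ap, 0.444 for Gli2 and 0.179 for Ntf3. So were Mfap4 (0.0792 in members, 0.174 in other nuclei), Kctd8 (0.227 and 0.468), Gsg1l (0.139 and 0.463), Nrn1 (0.142 and 0.4997), Ppp2r2c (0.243 and 0.536), Chrm3 (0.291 and 0.603), Hs3st5 (0.309 and 0.718), Ebf3 (0.199 and 0.756) and F13a1 (0.187 and 0.841). In supported members Gli2 kept a ratio of 0.215 (0.103 to 0.433), on 24 UMIs in 6 control nuclei and 14 in 9 cKO nuclei. Kctd8 was at 0.239 (0.178 to 0.321) there, while Hs3st5 stood at 0.607 (0.477 to 0.776).

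Markers of the granule lineage moved with these genes. Of 15 granule markers, 13 were lower in cKO members and 7 past 2-fold, with a median log2 ratio of -0.90. The whole list summed to 1882 CPM in control and 1053 CPM in cKO members, with Pax6 detected in 41.7% and 17.3% of members. In supported members 1 of 13 was past 2-fold lower (Gli2), the median was -0.20, and the sums were 1246 and 982 CPM. The part of granule lineage RNA in the lower genes was not tested.

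The other functional lists of the precursor stayed nearer to 1 in supported members. The median log2 ratio there was -0.03 over 20 glutamate receptor genes, -0.01 over 27 ion channel genes and 0.02 over 31 adhesion and matrix genes. It was 0.04 over 21 growth factor signalling genes, 0.06 over 15 inhibitors of differentiation and -0.03 over 22 transcription and chromatin genes. Kcnd2, a potassium channel gene abundant in OPCs, had a ratio of 1.12 (1.06 to 1.18) there, Erbb4, a neuregulin receptor, 0.99 (0.93 to 1.05), Fgfr2 1.01 (0.90 to 1.14) and Gria2 0.96 (0.87 to 1.07). Single genes of these lists were farther out. Nrg1, the ligand neuregulin-1, was at 0.54 (0.48 to 0.62), Kcnip4 at 0.53 (0.45 to 0.64), Cntnap2 at 0.56 (0.49 to 0.66) and Gabrb1 at 2.50 (1.52 to 4.35). The median of 24 migration and guidance genes was -0.09, with Tmeff2 at 2.13 (1.74 to 2.63). In all members that median was -0.18 over 28 genes, with 1 past 2-fold higher and 5 lower, beside 402 and 408 of 9681 over all genes. The other medians in all members were 0.08 for glutamate receptors, 0.12 for ion channels and 0.15 for adhesion and matrix. They were 0.18 for growth factor signalling, -0.03 for inhibitors of differentiation and -0.19 for transcription and chromatin.

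Cholesterol synthesis, which supplies the growing myelin sheath, did not follow the myelin genes. In all members 14 of 19 genes were lower and 0 were past 2-fold in either direction, with a median log2 ratio of -0.28. In supported members 14 of 16 were lower, with a median of -0.33, Msmo1 past 2-fold lower and Insig1 past 2-fold higher. Cyp51, lanosterol demethylase, had a ratio of 0.67 (0.52 to 0.88) and Msmo1, a sterol methyl oxidase, of 0.48 (0.30 to 0.77). In the other nuclei the median of the list was -0.19.

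Of the genes of the earlier progenitor stage, Egfr was lower, at 191 and 101 CPM, a ratio of 0.53 (0.40 to 0.70), and 0.58 (0.40 to 0.84) in supported members. Fabp7, a fatty acid binding protein of radial glia, was at 1.43 (1.17 to 1.76) and the glutamate transporter Slc1a3 at 1.36 (1.11 to 1.69). In supported members they were at 1.39 (1.08 to 1.81) and 1.62 (1.21 to 2.203). The median of 15 such genes was 0.26, against 0.39 in supported members and 0.20 in the other nuclei, and it turned to -0.27 with members thinned to 1000 UMIs.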

How the data were processed

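Nuclei from 12 pooled P1 cerebella per genotype were profiled with 10x 3′ v3.1 chemistry. The authors deposited raw UMI counts per gene and barcode, made with Cell Ranger 7.0.1 on mm10 per the labels; the study's later ambient RNA and doublet steps were not applied. The files hold 4857 control and 6946 cKO barcodes and totals of 22325208 and 33726533 counts. The members, gene lists and tests were chosen with earlier results of these data known. Counts were summed over members in Python 3.11.15 (scipy 1.17.1), given as CPM and compared as ratios with exact 95% intervals (Poisson, conditional binomial or Clopper-Pearson) that cover counting error only; the ratio script was checked on simulated counts. With 1 library per genotype no test was run. A gene counted as past 2-fold with 20 or more UMIs over both libraries. Between libraries the text names the 12 genes in each direction, of 30 or more UMIs and seen in 5 or more nuclei, past 2-fold with an interval without 1, whose interval lay farthest from 1, and against other nuclei the 15 of largest smaller fold; other genes come from 24 lists. Doublets were kept in the main values, and Scrublet in scanpy 1.11.5 served as an alternative. Gene positions are from GENCODE M21 on the same build. Some genes that these rules select are not reported here.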

Additional observations from a re-analysis of the deposited data

How the results depend on the processing

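No paired analysis was possible because each genotype has 1 library. The member share ratio of 1.41 became 1.84 without members holding markers of other cell types (54 of 103 control and 90 of 237 cKO members) and 1.91 in supported members. It was 1.32 over nuclei without granule markers and 0.907 over members and astroglial nuclei. The dividing share stayed within its interval in every alternative run, and the differentiating share ratio of 1.70 was 5.49 with members thinned to 1000 UMIs and 1.12 without members holding other markers, where its interval included 1. Genes past 2-fold numbered 810 (402 higher, 408 lower). They were 1548 (809, 739) with 10 or more UMIs per gene, 259 (103, 156) with 50 or more, 395 (195, 200) with members thinned, and 352 (178, 174) with the rule applied to thinned nuclei. The lower genes were 261 without members holding other markers.

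The OPC identity median of 0.52 was 0.37 with a rule sum of 4 or more and with members thinned, 0.18 with the rule on thinned nuclei, 0.21 without members holding other markers and 0.28 in supported members. The G2/M median of -0.55 was -0.036 without members holding other markers, 0.23 with the rule on thinned nuclei and 0.13 without dividing members, which its own construction removes. The S phase median was -0.67 with members thinned. The granule marker median of -0.90 was -1.55 with Gad1 and Gad2 at 0 and -0.20 in supported members. The committed precursor median was -0.024 with the rule on thinned nuclei, where Enpp6 had a ratio of 0.648 against 3 counts, Mbp of 0.324 and Gm47134 of 0. That rule left 23 control and 55 cKO members and asks for 3 UMIs of the selecting genes in 1000, which late nuclei without Pdgfra seldom hold. With members thinned the early progenitor median was -0.27, Ell2 was at 0.869 and Tox3 at 0.745. Without the Enpp6 nuclei Enpp6 was left with 1 UMI, 0.182 against 3 counts. Where no construction is named, the cause was not tested. The supported members and the Enpp6 nuclei were chosen after seeing the data.

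Depth is the main limit: with 103 control members 3 counts are 2.91% and the exact upper limit of a count of 0 is 3.52%, with 62 supported ones 4.84% and 5.78%, and no interval covers the spread between animals or dissections.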

Other observations

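Xist, transcribed from the inactive X chromosome of females, was detected in 56.3% of control and 65.4% of cKO members and in 56.8% and 69.5% of the other nuclei, and the labels do not give the sex of the pooled animals.

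Gdf10, a marker of Bergmann glia, had 3 UMIs in control and 38 in cKO members, a ratio of 6.52 (2.07 to 33.0), and 1 and 25 UMIs in supported members. Over the 8 astroglia markers with enough counts the median log2 ratio was 0.56 in members and 0.51 in the other nuclei. Igf2, a growth factor, had 0 UMIs in control members and 38 in cKO members (at least 6.52-fold higher against 3 counts), 21 of them in a single nucleus of 3 that held any.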
